A study of Homo sapiens with 8 samples.

Results

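C4-2 cells of 2 groups were compared, one with a short hairpin RNA against CDCA8 (shCDCA8) and one with a control hairpin (shCTRL), each with 2 polyA RNA libraries. C4-2, an established line of human prostate cancer, descends from LNCaP and can grow where androgen is scarce, and the cells were grown in serum-supplemented medium with no treatment named. The labels name the hairpin alone (under the tag transfection) and give neither a second hairpin against CDCA8, a rescue, a time after the hairpin nor whether the 2 libraries of a group came from separate cultures, so the p-values below measure the spread between these libraries, which may be technical. The genes described are the 11833 of 18892 in the table that reached at least 1 RPM (reads of the gene scaled to a fixed library total) in at least 2 of the 4 libraries. They were chosen by abundance alone, but with 2 libraries a group a gene could pass through 1 group alone, the one where it was high. The series also holds small RNA libraries of an EZH2 hairpin, which are not analysed here.

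CDCA8 encodes borealin, which with survivin (BIRC5) and INCENP places the kinase Aurora B (AURKB) on centromeres in early mitosis and on the central spindle at anaphase. This chromosomal passenger complex corrects faulty attachments of kinetochores to microtubules and guides cytokinesis, and its genes are transcribed mainly in G2 and mitosis. In prostate cancer cells, secretory genes such as KLK3 respond to androgen, and amino acid supply is governed in part by ATF4, the transcription factor of the integrated stress response. The study's title ties CDCA8 to EZH2. The comparison asks which transcripts change when CDCA8 is lowered.

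The libraries held between 17406425 and 21920570 reads in the gene rows, which was 33.3% and 34.2% of the RPM divisor after knockdown against 41.1% and 43.6% in the controls. All levels below are therefore rescaled RPM, the deposited RPM divided by a factor per library, its median ratio to the geometric means of the genes. A log2 fold change is the difference of log2(rescaled RPM + 1), which understates the change of low genes, and a gene rose or fell where limma's Benjamini-Hochberg adjusted p over all 11833 genes was under 0.05. Counts given as deposited come from the same test on RPM without rescaling, where the median log2 fold change of all genes was -0.27. These are totals of bulk RNA, so a change in the number of cells in a phase and a change of RNA per cell cannot be told apart.

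CDCA8 itself had 13.1 and 14.4 rescaled RPM in shCTRL replicates 1 and 2 and 4.54 and 4.28 in shCDCA8 replicates 1 and 2. Both knockdown libraries were below both controls, and the log2 fold change was -1.45 with an SE of 0.123 for 2 libraries a group (limma adjusted p = 3.26e-05). BIRC5, the survivin subunit, stood at 41.1 and 40.7 against 17.2 and 15.1 rescaled RPM (log2 fold change -1.29 ± 0.101). AURKB, the kinase, stood at 10.7 and 10.7 against 4.12 and 4.49 (-1.14). INCENP, the scaffold that binds the other three, stood at 11.6 and 12.4 against 6.80 and 8.40 (-0.60). The groups did not overlap for any of these 4 genes, which also held for 84.2% of all 11833 genes. All 4 fell, against 33.6% of all genes, and INCENP had the smallest fall of them. As deposited the 4 genes also fell.

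**Figure D1:**
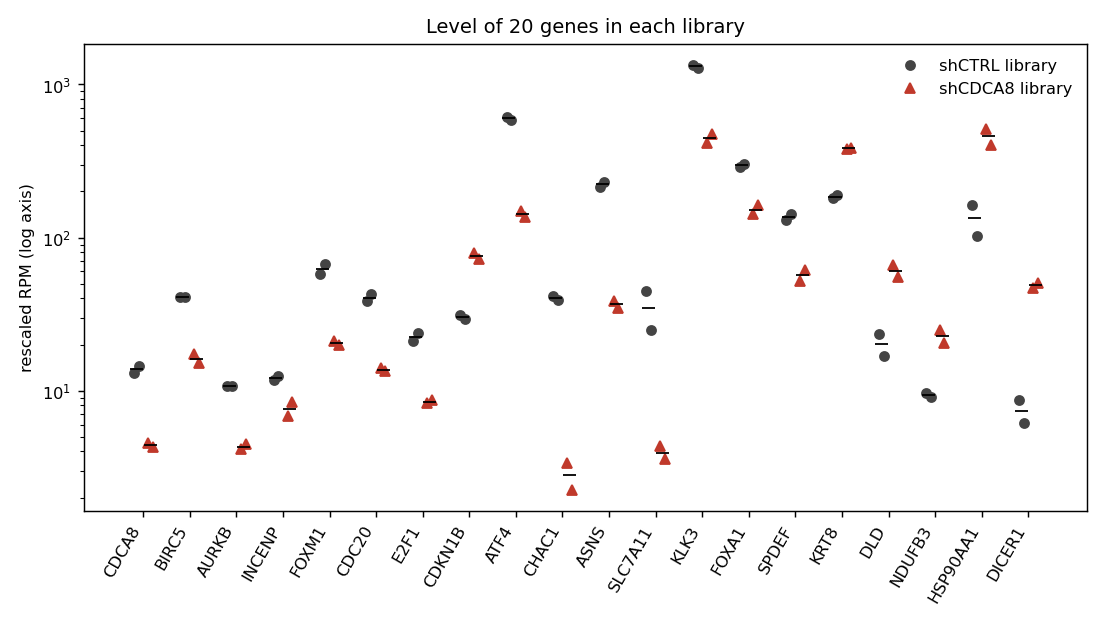
Rescaled RPM (log axis) of 20 genes in each library, with circles for the 2 shCTRL and triangles for the 2 shCDCA8 libraries and short lines at the group means. CDCA8 sits at 13.1 and 14.4 in shCTRL and 4.54 and 4.28 in shCDCA8, and KRT8, CDKN1B, DLD, NDUFB3, HSP90AA1 and DICER1 are the genes of the plot that sit higher after knockdown.

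The response was broad. Of the 11833 genes, 3931 rose (33.2%) and 3979 fell (33.6%), together 66.8%, and the 2 groups did not overlap for 9965 (84.2%). Those that rose at least 2-fold numbered 791 (6.68%), and 1004 (8.48%) fell by at least 2-fold. At 4-fold there were 22 rises and 93 falls, and at 8-fold 5 and 11. As deposited, 2224 rose and 5628 fell. Counts of members below are to be read against these shares, since about 1 gene in 3 was called in each direction.

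**Figure D2:**
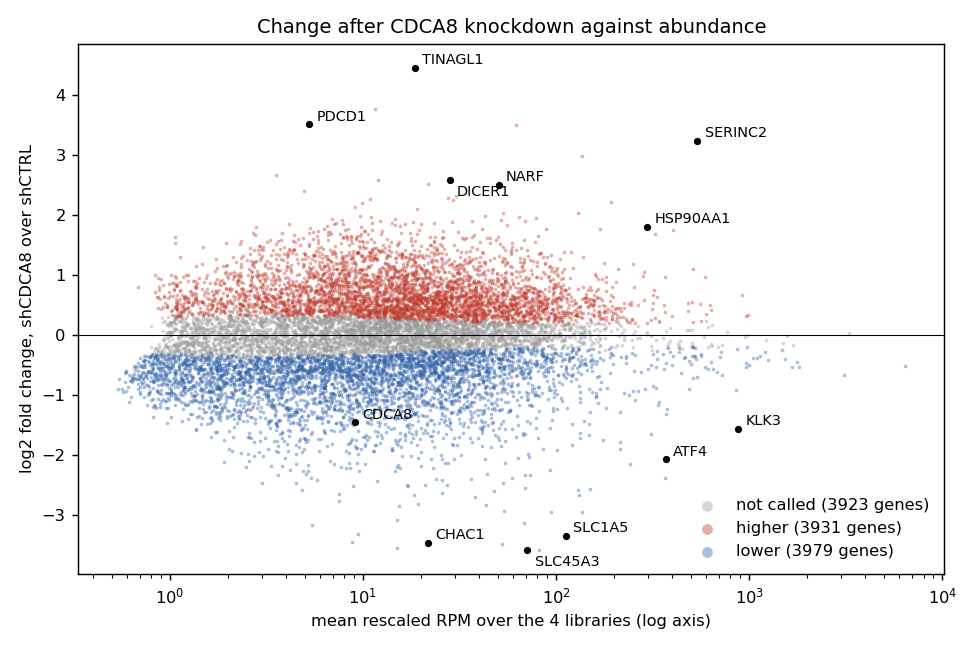
Log2 fold change (shCDCA8 over shCTRL) of each of the 11833 genes against its mean rescaled RPM over the 4 libraries (log axis), coloured by call. Falls reach further below 0 among the genes of middle abundance than rises do above it, apart from a few genes such as TINAGL1 (4.45), PDCD1 (3.51) and SERINC2 (3.24).

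Among regulators of mitotic entry and exit, 20 of 29 measured genes fell and 2 rose (26 and 0 as deposited, 0 rises without shCTRL replicate 2, 0 rises without shCDCA8 replicate 1, 0 rises without shCDCA8 replicate 2), with a median log2 fold change of -0.73 against 0.01 for all genes. FOXM1, which drives transcription of G2 and M genes, stood at 57.5 and 66.7 rescaled RPM in shCTRL and 20.9 and 19.9 in shCDCA8 (-1.56 ± 0.101, limma adjusted p = 1.03e-05). CDC20, the activator of the anaphase-promoting complex, went from 38.5 and 42.5 to 13.96 and 13.4 (-1.50). PLK1, a kinase of centrosome maturation and mitotic exit, went from 35.9 and 41.4 to 13.9 and 15.3 (-1.35). Every control library lay above every knockdown library for these 3 genes. Cyclin B2 (CCNB2, -1.26), the spindle factor TPX2 (-1.32), securin (PTTG1, -1.20) and the inhibitory kinase PKMYT1 (-1.33) fell as well. AURKA, the centrosomal Aurora kinase, was not called (-0.10, limma adjusted p = 0.516) but fell as deposited (-0.37).

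The motor proteins of the spindle followed the same direction, with 7 of 10 measured mitotic kinesins lower and 1 higher (8 and 1 as deposited; median -0.86). KIF18B, which limits astral microtubule length, went from 8.17 and 9.33 to 2.42 and 3.12 rescaled RPM (-1.37). KIFC1, a minus-end motor that clusters centrosomes, fell (-1.29), as did KIF20A, the motor that carries the passenger complex to the central spindle (-1.08). KIF2A, a microtubule depolymerase also used outside mitosis, was the member that rose (0.71).

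Kinetochore and checkpoint genes were divided. Of 35 measured, 13 fell, 4 rose and 18 were not called (17 and 1 as deposited, 2 rises without shCTRL replicate 2, 2 rises without shCDCA8 replicate 2), and their median of -0.03 was near that of all genes. CENPA, the centromeric histone H3 variant on which kinetochores are built, went from 5.24 and 5.17 to 1.81 and 1.63 rescaled RPM (-1.19). CENPM (-1.10) of the inner kinetochore, ZWINT (-1.04), a docking factor of the checkpoint, and SKA1 (-0.89), which couples kinetochores to microtubule ends, also fell. The checkpoint kinase TTK was not called (0.22, limma adjusted p = 0.173), though it was with quantile normalization (0.49). CENPP of the inner kinetochore rose from 1.76 and 2.02 to 7.70 and 4.79 (1.30).

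Of 17 cytokinesis and abscission genes, 6 fell and 6 rose (10 and 4 as deposited). Those that fell included RACGAP1, the centralspindlin subunit (from 22.3 and 23.1 to 8.83 and 7.45 rescaled RPM, -1.38), the citron kinase gene CIT (-1.46) and the septin SEPT9 (-0.94). Those that rose included the membrane scission genes TSG101 (1.04) and VPS4B (1.13), which also serve endosomes, and the septin SEPT7 (1.46).

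Condensin and cohesin, the 2 complexes that shape and hold chromosomes, did not move as one. Of 20 genes 11 rose and 5 fell (11 and 6 as deposited), with a median of 0.67. SMC3, a ring subunit of cohesin, stood at 2.05 and 1.47 rescaled RPM in shCTRL and 6.65 and 7.57 in shCDCA8 (1.56). The cohesin regulator PDS5B (1.82), the subunit STAG2 (1.60) and the loader NIPBL (1.34) rose too. SMC1A, the partner of SMC3 in the ring, fell (-1.05), and so did NCAPD2 of condensin, from 68.8 and 70.3 to 25.5 and 24.3 (-1.44).

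In DNA replication, 30 of 51 licensing, fork and nucleotide supply genes fell and 3 rose (39 and 2 as deposited, 5 rises without shCTRL replicate 1; median -0.35). MCM3 of the replicative helicase went from 28.8 and 31.4 to 10.2 and 9.06 rescaled RPM (-1.55 ± 0.111), the largest fall of the list. DUT, which keeps uracil out of DNA, fell (-1.16), as did the thymidine kinase TK1 (-0.97), thymidylate synthase TYMS (-1.09), the helicase cofactor CDC45 (-1.22) and UHRF1, which reads hemimethylated DNA (-1.19). PCNA, the sliding clamp, was at 23.9 and 23.9 in shCTRL against 23.03 and 21.4 in shCDCA8 and was not called (-0.10, limma adjusted p = 0.378) but fell as deposited (-0.40). Members that rose included RFC1 (0.73) of the clamp loader and the origin recognition subunit ORC4 (0.71).

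Of 26 homologous recombination and Fanconi genes, 13 fell and 7 rose (15 and 3 as deposited, 3 rises without shCDCA8 replicate 1, 4 rises without shCDCA8 replicate 2). XRCC3, which helps load the recombinase onto single strands, fell from 22.9 and 26.7 to 8.38 and 9.81 rescaled RPM (-1.35). MRE11A, the nuclease of the MRN sensor of DNA ends, rose from 1.31 and 1.19 to 4.19 and 4.47 (1.24).

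At the G1 control point, 13 of 26 genes fell and 6 rose (14 and 2 as deposited). E2F1, E2F2 and E2F3, the activator E2F factors, fell by similar amounts (-1.31, -1.35 and -1.04), and E2F1 went from 21.1 and 23.9 to 8.24 and 8.71 rescaled RPM. CDK4, the kinase of D-type cyclins, fell from 110.3 and 107 to 54.0 and 53.2 (-1.01). CDKN1B, which encodes the inhibitor p27, rose from 31.4 and 29.3 to 79.6 and 72.3 (1.30 ± 0.0907), and the retinoblastoma gene RB1 rose (0.91). CDKN2A, the locus of p16 and p14ARF, fell (-1.38).

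Promoters of mitotic genes often carry the cell cycle homology region, TTTGAA, close to the start, where the MuvB complexes bind. These letters, searched on both strands in the 250 bases before to 50 after the RefSeq start, were in 11 of 23 promoters of entry and exit genes and 14 of 29 of kinetochore genes, against 15.4% of all 27305 promoters and 8.76% of those of measured genes. The stretches below are shown because their genes fell and name the sites a reader can set beside the values (RefSeq, GRCh38.p14, gene strand, 5′ to 3′, capitals mark TTTGAA or its reverse complement TTCAAA). The PLK1 stretch is chr16:23678820-23678905, that of CCNB2 chr15:59105077-59105162 and that of CENPA chr2:26785998-26786083, with the match 29, 29 and 18 bases before the start, and that of CDC20, chr1:43358763-43358961, holds 2 matches.
PLK1: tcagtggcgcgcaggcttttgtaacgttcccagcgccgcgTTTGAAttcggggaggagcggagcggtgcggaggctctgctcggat
CCNB2: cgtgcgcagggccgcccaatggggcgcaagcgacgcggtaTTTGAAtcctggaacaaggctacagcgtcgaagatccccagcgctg
CENPA: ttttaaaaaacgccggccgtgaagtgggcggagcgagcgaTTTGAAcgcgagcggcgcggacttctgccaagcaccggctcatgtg
CDC20: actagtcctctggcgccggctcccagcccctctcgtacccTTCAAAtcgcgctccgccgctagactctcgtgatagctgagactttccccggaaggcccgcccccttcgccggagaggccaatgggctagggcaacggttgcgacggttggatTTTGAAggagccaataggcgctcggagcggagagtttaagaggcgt

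A match did not go with a fall in general. The 831 measured genes with TTTGAA had a median log2 fold change of 0.07, and the 8657 without it 0.03. Among entry and exit genes with these letters, CDC20, PLK1, CCNB2, ESPL1 and CKS1B fell. FZR1, CCNF, CKS2 and MASTL were not called, and CDK1 (0.38) and LIN54 (0.53) rose. Among kinetochore genes with them, CENPN (0.29) and ZW10 (0.52) rose. NDC80, MAD2L1, CENPF, NUF2 and SPDL1 were not called, and the others fell. The E2F-type letters TTCCCGCC were in 11 of 44 promoters of replication genes, against 3.18% of all promoters and 5.25% of those of measured genes. TTTGGCGC was in 6, against 0.659% and 1.07%. Of all measured genes with a promoter in the table, 31.3% of those with TTCCCGCC fell and 32.7% of those without it. With TTTGGCGC 29.4% fell, and without it 32.7%.

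The amino acid response held many deep falls. The integrated stress response lowers general translation through phosphorylation of eIF2 while translating ATF4, which switches on amino acid synthesis, uptake and tRNA charging. ATF4 transcripts stood at 609 and 590.4 rescaled RPM in shCTRL and 149.5 and 135 in shCDCA8 (-2.07 ± 0.0791, limma adjusted p = 1.03e-06). Of 28 regulators and feedback genes, 16 fell and 5 rose (19 and 2 as deposited; median -0.46), and 11 of the falls were at least 2-fold. CHAC1, which degrades glutathione, went from 41.8 and 39.0 to 3.38 and 2.26 (-3.45). STC2, a secreted glycoprotein induced by stress, went from 83.4 and 81.6 to 13.1 and 12.4 (-2.60). The ATF4 partner genes CEBPB (-1.45) and DDIT3 (-1.34), the pseudokinase TRIB3 (-1.77) and the mTORC1 inhibitor DDIT4 (-2.04) fell. Upstream, the eIF2 kinase gene EIF2AK1 fell (-0.42) and EIF2S1, which encodes the phosphorylated subunit of eIF2, rose (1.03).

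In serine, glycine and one-carbon metabolism 11 of 20 genes fell and 2 rose (14 and 1 as deposited, 1 rise without shCTRL replicate 1, 1 rise without shCDCA8 replicate 2). The 3 steps from 3-phosphoglycerate to serine all fell, PHGDH (-1.74), PSAT1 (from 231 and 227 to 38.0 and 32.5 rescaled RPM, -2.67) and PSPH (-2.06). The mitochondrial folate enzymes SHMT2 (from 338 and 328 to 95.7 and 96.4, -1.78), MTHFD2 (-2.13) and MTHFD1L (-2.26) fell.

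Of 24 other genes of nonessential amino acid metabolism, 18 fell and 1 rose (21 and 0 as deposited, 0 rises without shCTRL replicate 1, 0 rises without shCDCA8 replicate 2; median -0.57). Asparagine synthetase ASNS went from 215 and 232 to 38.7 and 34.7 rescaled RPM (-2.57). PYCR1, of proline synthesis, went from 254 and 263 to 41.4 and 44.4 (-2.56), and the mitochondrial alanine transaminase GPT2 from 116.5 and 116.5 to 21.6 and 23.4 (-2.32). For each of these 3 genes every knockdown library lay far below every control library, with little spread within a group. The cytosolic transaminase BCAT1 of branched-chain amino acids fell (-2.37), with a smaller fall of its mitochondrial partner BCAT2 (-0.83).

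Transporters moved with the enzymes, 15 of 22 lower and 3 higher (17 and 1 as deposited; median -0.88). SLC1A5, the glutamine carrier, went from 204 and 207 to 18.2 and 20.5 rescaled RPM (-3.34 ± 0.0877), and SLC1A4, a carrier of small neutral amino acids, from 16.6 and 17.3 to 0.611 and 0.687 (-3.45). SLC7A5 (-2.94) and its heavy chain SLC3A2 (-0.85), which carry leucine, SLC7A11 (-2.81), which imports cystine, and SLC7A1 (-1.90), which imports arginine, fell. SLC38A9, the lysosomal arginine sensor, rose from 5.79 and 4.57 to 12.1 and 10.7 (1.005).

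The cytosolic aminoacyl-tRNA synthetases, which charge tRNAs, divided, 9 lower and 11 higher of 20, every member being called, but 9 lower and 4 higher as deposited. GARS, which charges glycine, went from 227 and 224 to 73.2 and 67.8 rescaled RPM (-1.67), CARS for cysteine from 59.3 and 60.1 to 25.1 and 23.7 (-1.26) and WARS for tryptophan fell too (-0.96). RARS, for arginine, rose from 22.7 and 20.6 to 63.3 and 46.6 (1.29). Of 17 mitochondrial synthetases 7 rose and 3 fell, which turned to 0 and 7 as deposited, 2 rises without shCDCA8 replicate 1. VARS2, for valine, was the lowest of them (-0.92).

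ATF4 with a CEBP partner binds a composite site with the core TGATGNAA, where N is any base. Searched on both strands, this core was in 5 of 12 promoters found for cytosolic synthetases, 3 of 19 for transporters, 1 of 14 for serine and one-carbon genes, 3 of 16 for the other nonessential amino acid genes and 3 of 26 for stress response genes, against 3.67% of all promoters and 1.54% of those of measured genes. The stretches below are those of 4 genes of these lists that fell, CHAC1 of the stress response, ASNS and BCAT1 of nonessential amino acids and MTHFD1L of one-carbon metabolism, with the core in capitals (in the CHAC1 stretch its reverse complement; RefSeq, GRCh38.p14, gene strand). They are chr15:40953222-40953309 for CHAC1, chr7:97872429-97872516 for ASNS, chr12:24949102-24949189 for BCAT1 and chr6:150866317-150866404 for MTHFD1L, with the core beginning 209, 68, 48 and 129 bases before the start.
CHAC1: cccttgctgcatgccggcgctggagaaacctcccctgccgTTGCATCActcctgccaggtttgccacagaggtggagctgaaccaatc
ASNS: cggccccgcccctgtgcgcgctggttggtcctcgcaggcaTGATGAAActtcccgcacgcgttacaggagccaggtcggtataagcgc
BCAT1: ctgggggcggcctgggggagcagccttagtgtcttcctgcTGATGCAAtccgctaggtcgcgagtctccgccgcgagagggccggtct
MTHFD1L: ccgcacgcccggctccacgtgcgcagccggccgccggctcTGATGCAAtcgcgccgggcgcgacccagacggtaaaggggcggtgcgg

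Over all measured genes with a promoter in the table, 41.8% of the 146 with the core fell and 32.5% of the 9342 without it, with medians of -0.11 and 0.03. Among synthetase genes whose promoter holds the core, 2 rose, TARS (0.58) and NARS (0.59). PPP1R15B of the stress response, whose promoter holds the core too, also rose (0.52). The other genes with the core in the synthetase, amino acid and stress response lists fell. A match describes the letters and is not a measured binding site.

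The list of endoplasmic reticulum chaperone and unfolded protein response genes and that of cytosolic chaperone genes had medians of opposite sign, -0.34 and 0.61. Of 25 endoplasmic reticulum chaperone and unfolded protein response genes 14 fell and 5 rose (17 and 3 as deposited), with the chaperone BiP (HSPA5) going from 219 and 232 to 114 and 92.4 rescaled RPM (-1.13) and the transcription factor XBP1 from 217 and 218 to 79.8 and 74.9 (-1.48). Of 29 cytosolic chaperone genes 22 rose and 2 fell (15 and 3 as deposited, 1 fall without shCTRL replicate 1, 1 fall without shCTRL replicate 2). HSP90AA1, the inducible HSP90, went from 164 and 103 to 515 and 404 (1.81). Its 2 control libraries lay apart, but both were below both knockdown libraries. HSPA4, an HSP70 nucleotide exchange factor, went from 48.9 and 42.4 to 126 and 109.5 (1.35), and the chaperonin subunit gene CCT8 from 38.4 and 31.3 to 106 and 88.1 (1.45). Of 44 proteasome subunit genes 31 rose and 4 fell (12 and 8 as deposited, 2 falls without shCTRL replicate 1, 2 falls without shCTRL replicate 2). The rises included the ATPase subunits PSMC2 (1.21) and PSMC6 (1.21) and the catalytic subunit PSMB6 (0.79).

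Autophagy genes were mostly higher, 22 of 34 with 4 lower (14 and 8 as deposited, 2 falls without shCTRL replicate 1, 2 falls without shCTRL replicate 2, 1 fall without shCDCA8 replicate 2; median 0.45). RB1CC1, the scaffold of the initiating ULK1 kinase, went from 5.38 and 2.67 to 17.1 and 19.1 rescaled RPM (1.98), and the cargo receptor NBR1 (1.16) and the processing protease ATG4B (1.10) rose. WIPI1, which reads phosphatidylinositol 3-phosphate, fell from 11.5 and 12.1 to 3.71 and 3.61 (-1.45). In mTORC1 and nutrient sensing 14 of 35 genes rose and 8 fell, which turned to 9 and 14 as deposited. The mTORC1 substrate EIF4EBP1, a brake on cap-dependent translation and a known ATF4 target, went from 213 and 197 to 61.4 and 62.2 (-1.71). SESN2, a leucine sensor, fell from 92.6 and 97.9 to 28.2 and 29.3 (-1.70). RPS6KB2, which encodes an S6 kinase, rose from 30.9 and 32.3 to 125 and 125 (1.95).

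**Figure D3:**
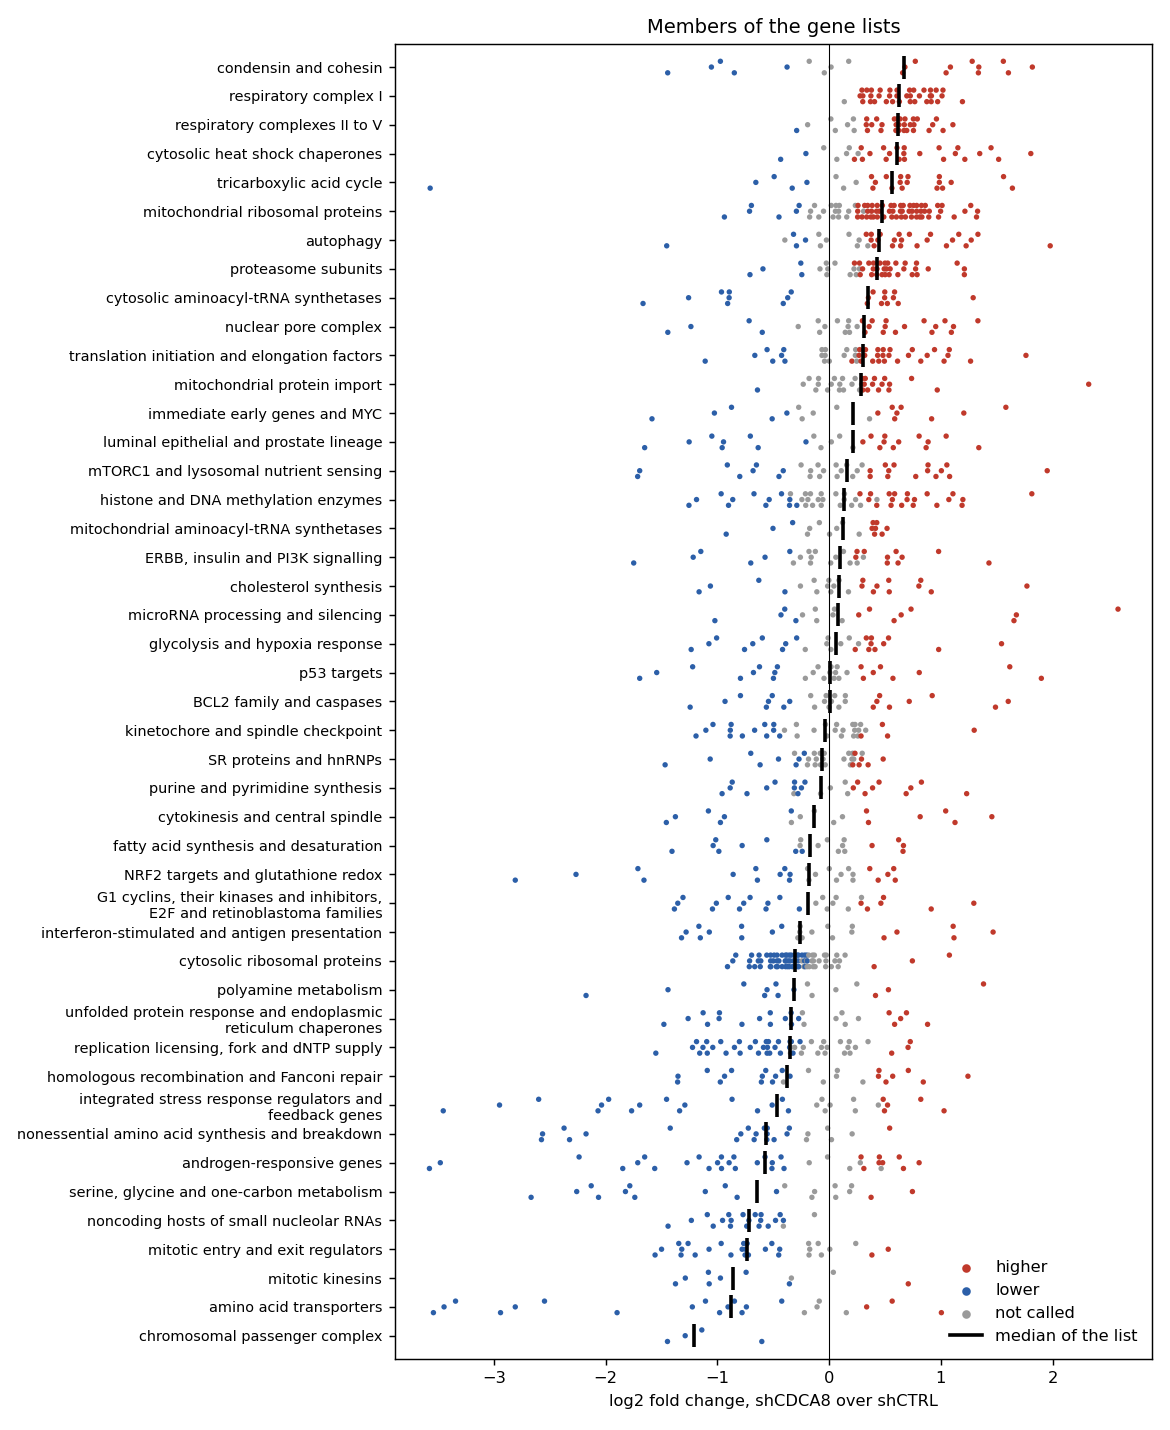
Log2 fold change (shCDCA8 over shCTRL, x axis) of the measured members of each gene list, one point per gene coloured by call and a black bar at the list's median, lists ordered by median. The passenger complex (-1.21), amino acid transporters (-0.88) and mitotic kinesins (-0.86) lie lowest, and condensin and cohesin (0.67) and respiratory complex I (0.63) highest.

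Genes of the translation machinery moved in opposite ways. Of 78 cytosolic ribosomal protein genes 52 fell and 3 rose (73 and 2 as deposited, 6 rises without shCDCA8 replicate 2), with a narrow range of falls down to -0.91 for RPL10, although reads of these genes can be shared with their processed pseudogenes. The noncoding hosts of small nucleolar RNAs, which like ribosomal protein genes carry terminal oligopyrimidine starts in many cases, were mostly lower. Of 21, 19 fell and none rose (21 and 0 as deposited; median -0.72). Long noncoding RNAs in general leaned lower too, with 54.8% of 354 measured falling and 7.34% rising (median -0.37). SNHG3 went from 51.9 and 54.6 to 19.0 and 18.9 rescaled RPM (-1.44), GAS5 from 57.7 and 57.0 to 26.7 and 28.1 (-1.04) and LRRC75A-AS1 from 381 and 368 to 204 and 197 (-0.90). Mitochondrial ribosomal protein genes were higher in 55 of 77 cases and lower in 6 (35 and 13 as deposited; median 0.48), with MRPL23 (1.33), MRPL10 (1.27) and MRPL41 (1.12) among the smallest p. Of 44 initiation and elongation factor genes 26 rose and 7 fell, an even 12 and 12 as deposited. EIF4G1, the scaffold of cap-dependent initiation, fell from 416 and 514 to 203 and 225 (-1.11), and EIF4G2, a relative that works without the cap-binding protein, rose from 188 and 179.8 to 666 and 588 (1.76).

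Most listed nuclear genes of mitochondrial respiration rose. Of 37 genes of respiratory complex I, which oxidises NADH, 36 rose and none fell (21 and 0 as deposited), with a median of 0.63. NDUFB3 went from 9.62 and 9.09 to 25.02 and 20.5 rescaled RPM (1.19). Larger levels with the same direction were those of NDUFA13, at 55.1 and 50.7 against 107 and 102 (0.97), and NDUFB10, at 64.2 and 64.8 against 123.3 and 120.0 (0.91). Complexes II to V added 31 rises of 38 and 1 fall (24 and 4 as deposited, 0 falls without shCTRL replicate 1, 0 falls without shCTRL replicate 2, 2 falls without shCDCA8 replicate 1). In the tricarboxylic acid cycle and its side reactions 17 of 25 rose and 5 fell (12 and 5 as deposited, 3 falls without shCTRL replicate 2, 3 falls without shCDCA8 replicate 1). Each gene named next had groups that did not overlap. SUCLA2, the ATP-forming succinyl-CoA ligase subunit, went from 4.35 and 2.44 to 13.7 and 11.1 (1.64). DLD, the shared dehydrogenase subunit of the pyruvate and oxoglutarate complexes, went from 23.3 and 16.7 to 66.0 and 54.9 (1.56). PCK2, which makes phosphoenolpyruvate in mitochondria and is a known ATF4 target, was the deepest fall of the list, from 146 and 158 to 11.4 and 12.4 (-3.57). In protein import 15 of 32 genes rose and 1 fell, turning to 3 and 7 as deposited, 2 falls without shCTRL replicate 2, 2 falls without shCDCA8 replicate 1. The largest rise was of the cytosolic cochaperone gene TOMM34 (from 8.31 and 10.6 to 52.3 and 49.9, 2.32).

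Most listed androgen-responsive genes fell, with exceptions. Of 35 listed genes 22 fell and 8 rose (24 and 3 as deposited, 5 rises without shCTRL replicate 2; median -0.57). KLK3, which encodes prostate-specific antigen, stood at 1337 and 1287 rescaled RPM in shCTRL against 415 and 475 in shCDCA8 (-1.56 ± 0.0861, limma adjusted p = 4.77e-06), and its neighbour KLK2 fell too (-1.27). SLC45A3, a prostate-enriched transporter, went from 128 and 136 to 9.75 and 10.6 (-3.58). TSC22D3, also a glucocorticoid target, went from 99.4 and 94.1 to 8.24 and 7.30 (-3.48), and ALDH1A3, a retinaldehyde dehydrogenase gene, from 65.9 and 64.0 to 18.1 and 16.6 (-1.85). TMPRSS2 fell by less (-0.85). FKBP5, a cochaperone of steroid receptors and a common androgen target, rose from 111 and 110.1 to 152 and 157 (0.48), though it was not called as deposited (0.17). ELL2 (0.63) and ACSL3 (0.67) rose too. The list shares UBE2C with mitotic exit.

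The luminal label of the cells held in both groups, with KRT8, KRT18, EPCAM, FOXA1 and HOXB13 measured in every library and the summed level of 25 luminal genes at 2947 and 3045 against 3104 and 3155 rescaled RPM. Within the list 12 rose and 8 fell, turning to 7 and 11 as deposited. The luminal transcription factor genes FOXA1 (from 289.5 and 303 to 143 and 162, -0.96) and SPDEF (-1.25) fell, whereas HOXB13, a prostate lineage factor at 244 and 255 in shCTRL against 239.7 and 267 in shCDCA8, was not called (0.02) but fell as deposited (-0.29). The keratin KRT8 rose from 182 and 188 to 379.9 and 387 (1.05) and the epithelial factor ELF3 from 12.4 and 13.0 to 33.8 and 33.7 (1.34). Markers of other cells were low in all libraries. Those of basal epithelium summed to 14.7 and 14.4 rescaled RPM in shCTRL and 11.01 and 10.3 in shCDCA8, with 4 of 7 at 1 RPM or more in any library. Those of neuroendocrine cells summed to 16.0 and 18.1 against 10.6 and 9.99 (3 of 10), those of fibroblasts and smooth muscle to 14.97 and 17.2 against 12.1 and 12.1 (4 of 11), and those of leukocytes and endothelium to 11.8 and 14.2 against 12.2 and 13.3 (3 of 9). No marker in the table was at 0 in all 4 libraries, and the part of such cells in the results was not tested.

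Targets of p53 had no common direction. Of 28, 8 rose, 9 fell and 11 were not called (4 and 14 as deposited, 5 rises without shCTRL replicate 2). ZMAT3, an RNA-binding protein gene, rose from 16.7 and 13.3 to 62.8 and 54.3 rescaled RPM (1.90), and RRM2B, a ribonucleotide reductase subunit, from 11.5 and 5.62 to 28.0 and 25.9 (1.62). GDF15, a secreted stress factor that ATF4 also induces, fell from 524 and 523 to 236 and 212 (-1.22), and PLK2 fell (-1.54).

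In the BCL2 family and caspases 8 of 26 rose and 8 fell (4 and 14 as deposited). The BH3-only gene BIK rose from 15.9 and 16.3 to 52.3 and 49.6 rescaled RPM (1.60). BAK1, a pore-forming effector, fell from 18.0 and 17.7 to 6.50 and 7.45 (-1.24). Among genes that protect cells, BIRC2 rose (0.92) and BCL2L1 fell (-0.35).

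Metabolic lists outside the amino acid response were mixed. In fatty acid synthesis 8 of 20 fell and 4 rose (11 and 3 as deposited), with the elongase ELOVL7 (-1.41) and the desaturase FADS1 (-1.01) lower and ELOVL1 higher (0.62). In cholesterol synthesis HMGCS1 (0.80) and IDI1 (0.91) of the early steps and the late sterol reductase TM7SF2 (from 75.3 and 76.3 to 262 and 261 rescaled RPM, 1.77) rose and another late reductase, DHCR7 (from 68.7 and 71.8 to 30.1 and 36.4, -1.06), fell, in all 10 higher and 4 lower of 23, turning to 4 and 8 as deposited, 5 rises without shCDCA8 replicate 2. Of 26 glycolysis and hypoxia genes 10 rose and 9 fell (3 and 13 as deposited, and 5 and 9 without shCTRL replicate 1). The entry steps SLC2A1 (-1.08) and HK2 (from 17.1 and 21.2 to 6.87 and 8.24, -1.23) fell and the aldolases ALDOA (0.98) and ALDOC (from 20.0 and 25.6 to 69.6 and 66.3, 1.54) rose.

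Of 25 NRF2 and glutathione genes 11 fell and 5 rose (15 and 1 as deposited). Glutathione reductase GSR went from 120.1 and 129 to 34.4 and 40.5 rescaled RPM (-1.71), GPX8, an endoplasmic reticulum peroxidase, from 10.4 and 7.13 to 1.05 and 0.961 (-2.27) and sulfiredoxin SRXN1 from 73.9 and 74.5 to 23.6 and 22.1 (-1.66), while GPX4, the guard against lipid peroxidation, rose (0.58). In polyamine metabolism 8 of 15 fell and 3 rose (11 and 1 as deposited), with spermine oxidase SMOX lower (from 5.23 and 5.28 to 1.31 and 1.29, -1.44) and AMD1, which makes the aminopropyl donor, higher (from 70.3 and 52.2 to 168 and 151, 1.38). In purine and pyrimidine synthesis 11 fell and 9 rose of 25 (14 and 4 as deposited, 7 falls without shCTRL replicate 1, 7 falls without shCDCA8 replicate 2, and 7 and 10 without the filter on low values), with both PRPP synthetases PRPS1 (-0.74) and PRPS2 (-0.96) and the pyrimidine enzyme CAD (-0.87) lower and the nucleoside monophosphate kinase CMPK1 higher (1.23).

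Of 51 histone and DNA methylation genes 20 rose and 12 fell, turning to 11 and 23 as deposited. EZH2, the methyltransferase of Polycomb repressive complex 2 and the factor the study links to CDCA8, went from 10.3 and 8.47 to 3.34 and 3.35 rescaled RPM (-1.25), while SUZ12 (1.19) and EED (0.65) of the same complex and the accessory factor MTF2 (from 3.33 and 1.53 to 11.6 and 9.75, 1.81) rose and JARID2 (-0.86) and PHF19 (-0.97) fell. The H3K9 demethylase KDM3A rose from 7.88 and 7.78 to 18.2 and 17.9 (1.11), and the H3K36 methyltransferase NSD1 fell (-0.90). In microRNA processing DICER1, which cuts hairpin precursors, had the largest change, from 8.66 and 6.14 to 47.1 and 50.7 (2.59 ± 0.146). The terminal uridylyltransferase ZCCHC6 (1.68) and the exonuclease XRN1 (1.65) rose, and AGO1 (-1.02) and AGO2 (-0.43) fell, in all 8 higher and 4 lower of 18 (5 and 6 as deposited, 2 falls without shCTRL replicate 2).

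In ERBB, insulin and PI3K signalling 10 of 28 rose and 6 fell, turning to 3 and 12 as deposited and to 7 and 9 with a filter of 5 RPM. The adaptor IRS1 went from 16.3 and 17.3 to 3.80 and 4.83 rescaled RPM (-1.75), and IGF1R (-1.15) and the adaptor GRB10 (-1.22) fell, while PIK3CA, the catalytic subunit, rose from 1.19 and 0.858 to 4.38 and 4.49 (1.43) and the receptor ERBB2 rose (0.98). Interferon and antigen presentation genes gave 9 falls and 5 rises of 23 (14 and 4 as deposited). The membrane restriction factors IFITM2 (-1.32) and IFITM3 (from 40.7 and 43.1 to 16.1 and 17.2, -1.28) fell, and ISG15 (1.12) and IRF7 (1.11) rose. Among immediate early genes 8 rose and 5 fell of 18, turning to 4 and 8 as deposited. MYC went from 140.4 and 121 to 62.7 and 64.4 (-1.03) and IER3 from 7.88 and 7.37 to 2.03 and 1.73 (-1.59), while IER2 (1.58) and JUNB (1.21) rose.

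Nuclear pore genes were higher in 16 and lower in 4 of 30 cases (9 and 7 as deposited), with the basket protein TPR (1.33) and the outer ring subunits NUP107 (1.11) and NUP133 (1.04) up and NUP210 (-1.44) and NUP62 (-1.24) down. SR proteins and hnRNPs, which steer splicing, changed little, with 18 of 32 not called, 8 lower and 6 higher (19 and 0 as deposited, 4 and 8 without the filter, 2 rises without shCTRL replicate 1, 3 rises without shCTRL replicate 2, 2 rises without shCDCA8 replicate 1, 5 falls without shCDCA8 replicate 2). HNRNPUL1 had the largest fall among them (-1.47).

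The largest rises with a mean of at least 5 rescaled RPM were led by TINAGL1, a matrix protein gene, at 0.673 and 0.746 in shCTRL and 38.0 and 34.9 in shCDCA8 (4.45 ± 0.124, limma adjusted p = 3.19e-07). PDCD1, which encodes the receptor PD-1 known from T cells, stood at 0.0172 and 0 against 11.2 and 9.85 (3.51), from 1 read in all in the controls. Of the leukocyte and endothelial markers that passed the filter, CD68 rose (0.69, mean 8.25 rescaled RPM) and CD4 (-0.78) and VWF (-1.17) fell. The source of the PDCD1 reads was not tested. The adhesion receptor gene BAI2 went from 9.50 and 9.01 to 112 and 118 (3.50) and SERINC2, which encodes a membrane protein, from 103 and 102 to 990.3 and 964 (3.24). YOD1, a deubiquitinase gene (2.59), NARF, whose product binds prelamin A (2.51), FYTTD1, an mRNA export adaptor gene (2.29), GMFB (2.25), KLHL28 (2.28) and the phosphatase gene PTP4A2 (2.22) were also among the 15 largest. The largest falls beyond those already given were of SLC6A9, the glycine transporter (from 27.0 and 30.3 to 1.29 and 1.82, -3.54), the chloride channel gene BEST1 (-3.31), the peptide hormone gene ADM2 (from 115.7 and 131 to 11.9 and 14.5, -3.13) and the microtubule-binding protein gene MAP1B (-3.07). They also included the stress protein gene NUPR1 (from 167 and 166 to 22.3 and 19.2, -2.95), the kinase gene RPS6KA2 (from 92.0 and 98.9 to 11.4 and 11.9, -2.93), the acid-sensing channel gene ASIC1 (-2.84) and RCN1, which encodes a calcium-binding protein of the secretory pathway (-2.83). Among the largest changes, TINAGL1, NKAIN1 and PDCD1 passed the filter through the knockdown libraries alone, and SLC1A4 and BEST1 through the controls alone.

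Several of the largest rises were neighbours. In RefSeq gene order (GRCh38.p14) the run of 10 successive measured genes with the highest median lay on chromosome 1, held SERINC2 and TINAGL1 and ended at BAI2. All 10 rose, with log2 fold changes of 0.86 to 4.45 and a median of 2.75, where 98% of 11403 such runs lay between -0.70 and 0.74. ZCCHC17, a zinc finger gene within it, went from 30.2 and 28.7 to 285 and 204 rescaled RPM (2.99), COL16A1, a collagen gene, from 5.57 and 5.93 to 38.9 and 36.4 (2.52) and NKAIN1, a membrane protein gene, from 0.742 and 0.672 to 24.1 and 20.5 (3.77). The stretch of successive measured genes that all rose was longer, 18 genes from PTPRU to KHDRBS1, and included SDC3, a heparan sulfate proteoglycan gene (1.97), LAPTM5, a lysosomal protein gene known from blood cells (2.68), and the phosphatase gene PTP4A2. Among the 11610 genes placed in order it was the longest such stretch, the next being of 14 genes, and the longest stretch of falls held 12 genes on chromosome 12 (RDH16 to DDIT3). The stretch on chromosome 1 ended at TMEM39B, which was not called (-0.11). Past TMEM39B most genes as far as BSDC1 rose as well, among them KPNA6 (1.62) and TXLNA (1.05), and none fell. The sources used here do not give whether counting used strand, so reads of overlapping neighbours cannot be told apart.

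**Figure D4:**
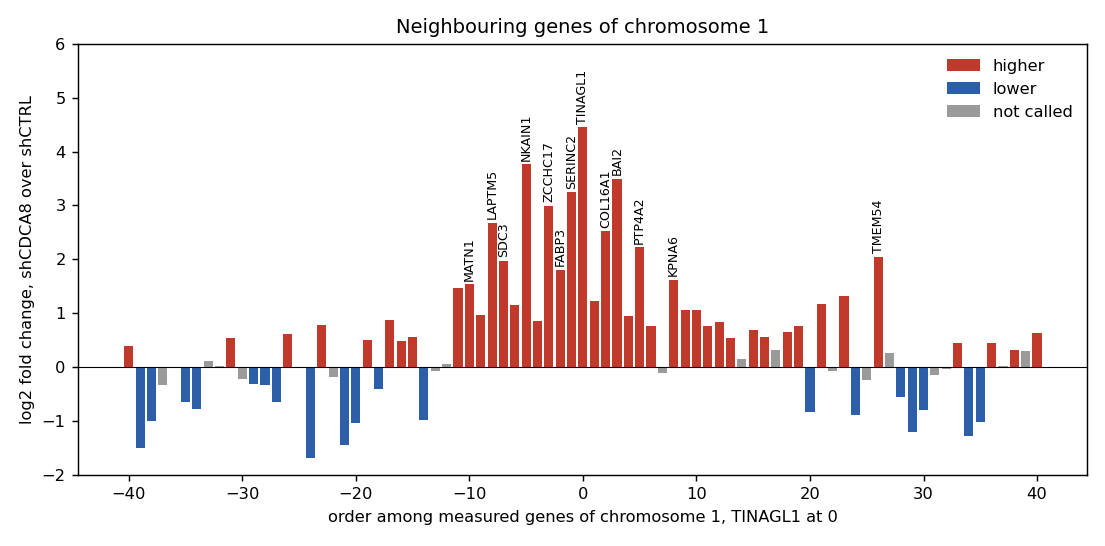
Log2 fold change (shCDCA8 over shCTRL) of measured genes in their order along chromosome 1, with TINAGL1 at 0 and bars coloured by call. The bars from PTPRU to KHDRBS1 all stand above 0, between 0.76 and 4.45. After TMEM39B (-0.11), the bars from KPNA6 to BSDC1 also stand above 0, between 0.15 and 1.62. Bars farther away on either side point both ways.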

How the data were processed

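The labels describe polyA RNA of C4-2 cells. Their protocols hold a Qiagen kit with DNBseq reads and a Zymo kit with Illumina reads, and do not say which applies to which library. Per the submitters' processing notes cutadapt, TopHat, HTSeq, edgeR and build hg19 were used, with no versions or roles given. The deposited file holds RPM, reads that the authors scaled to a library total larger than the sum of the gene rows. The 4 libraries were grouped by their titles. Reads were recovered from the steps of the RPM values (whole for 100% of values above 0, tolerance 0.01). The spread within a group was above counting error (chi-square per degree of freedom 9.70 in shCTRL and 11.6 in shCDCA8). Levels were divided by each library's median ratio (0.878 to 1.15).

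Genes that reached 1 RPM in 2 or more libraries were tested, two-sided, with limma 3.58.1 (trended variance, log2 with a pseudocount of 1). On simulated counts it recovered 73.5% of 1.5-fold and 98.5% of 2-fold changes in shCDCA8 against shCTRL (11668 genes) and called 0.105% of unchanged ones. The simulation changed 68, 66 and 66 genes by 1.5-, 2- and 4-fold beside 11468 unchanged ones. It gave every gene the same dispersion around its control mean. In the data 66.8% of genes were called, so the simulation does not give the share of false calls among them. Alternatives used edgeR 4.0.16 and DESeq2 1.42.0 on the recovered reads, and edgeR called 7807 genes. Symbols were matched to RefSeq (GRCh38.p14) for 11624 genes, and promoter searches used those with a table entry. Genes were named as the passenger complex, the 15 largest rises and 15 largest falls above a mean of 5 rescaled RPM, and the 3 smallest p of each list. Other named genes were chosen after their values were seen. The genes, lists and tests were chosen with earlier results of these data known. Some genes are not reported here. R was version 4.3.3.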

Additional observations from a re-analysis of the deposited data

How the results depend on the processing

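Values that changed are given here by setting. On RPM as deposited 2224 genes rose, 378 of them by at least 2-fold, and 1726 fell by at least 2-fold. HOXB13 then changed sign (-0.29), as it did with at least 5 RPM in 2 libraries (-0.031) and at least 1 RPM in all 4 (-0.034). With 1 library left out HOXB13 lay between -0.056 and 0.10. Falls of at least 2-fold numbered 1573 with a pseudocount of 0.1, 1659 in edgeR and 1624 in DESeq2, and 385 with a pseudocount of 5, where 323 rose as far. In edgeR 3851 rose and 3956 fell, in DESeq2 3639 and 3575. With 1 library left out, between 3327 and 3670 rose and between 3434 and 3708 fell, the lone library being assumed to vary like the others. CDCA8 lay between -1.72 and -0.99 over all alternatives run. Of 98 list counts, 51 moved by over 1.5 times as deposited and at most 13 under any other alternative. The cause of these differences was not tested.

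The 2 pairs of libraries share a number only. Their deviations correlated by 0.31 over 11833 genes, and with the replicate block 4444 genes rose and 4375 fell.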

Other observations

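Noncoding transcripts were lower more often than coding ones. Of 354 measured long noncoding RNAs 7.34% rose and 54.8% fell (median log2 fold change -0.37), against 34.7% and 32.7% of 11096 protein-coding genes (0.04). The shares also differed with abundance. In the lowest of 4 equal classes of mean level 20.5% rose and 43.1% fell, and in the highest class 40.8% and 29.5%. The filter used RPM before rescaling, and the controls had the larger factors (1.09 and 1.15 against 0.878 and 0.922). A gene near 1 RPM was therefore kept more readily when it was higher in the controls. Without the filter 930 genes rose and 898 fell by at least 2-fold, against 791 and 1004 with it. By gene span on the genome, 26.7% of the shortest of 4 classes rose and 40.3% fell, against 38.7% and 28.9% in the third and 36.5% and 31.2% in the longest. The part of abundance, span and the filter in the shares of noncoding RNAs and of low genes was not tested.

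Some genes had reads in one group alone. RTP5, a receptor-transporting protein gene, had no read in the controls and 88 and 119 reads after knockdown, at least 39.5-fold higher against a floor of 3 reads per library, which covers counting error only. It follows PDCD1 in the gene order of chromosome 2. HRK, a BH3-only gene, had 37 and 23 reads in the controls and none after knockdown, at least 8.59-fold lower. With 10 or more reads in each library of the other group, 2 genes were read only after knockdown and 10 only in the controls. These are reads without rescaling, and the controls held more of them in the gene rows (21920570 and 20380764 against 17406425 and 18931009). The part of depth in these 2 counts was not tested.

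In some other runs of neighbours most genes moved the same way. Metallothionein genes on chromosome 16, whose products bind zinc and copper, fell, with MT2A going from 35.2 and 35.6 to 10.5 and 10.1 rescaled RPM (-1.69), MT1X from 9.04 and 9.98 to 4.36 and 3.63 (-1.08) and MT1F from 3.22 and 2.78 to 0.502 and 0.589 (-1.37). They can share reads with one another. In the run of 10 genes that holds them, 6 fell and 2 rose. The second highest run of 10 genes lay on chromosome 5 (median 1.34, 8 higher and 0 lower) and held the cytokine receptor subunit IL6ST (1.94) and the kinase MAP3K1 (1.36). The lowest run lay on chromosome 12 (median -1.32, 7 lower and 1 higher of 10) and held SHMT2 and DDIT3. Medians of whole chromosomes lay between -0.14 (chromosome 22) and 0.14 (chromosome 5). These runs were chosen after their values were seen.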
